A study of Homo sapiens with 6 samples.

Results

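miR-335 is a microRNA whose hairpin lies in an intron of the gene MEST, and its mature arms, hsa-miR-335-5p and hsa-miR-335-3p (miR-335-5p and miR-335-3p from here on), were counted in small RNA libraries from Müller glial cells and from the extracellular vesicles (EV) that these cells released. The arms are 2 of the 2576 mature miRNAs that each count table lists, and they were found by name. They were selected on earlier values of the same libraries, namely the difference between whole cells and EV and the ratio of the arms, so the level of each arm, its change from cells to EV and its share of the hairpin are given as description and carry no test.

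All libraries came from MIO-M1, an established human Müller glial line labelled WT, grown in DMEM with 10% FCS and antibiotics. Müller glia are the radial glia of the retina. Whole cell RNA was taken from 3 cultures, at passages 22, 24 and 26, and EV RNA from 3 others, at passages 23, 25 and 27. Within each group the replicates are numbered 1 to 3 by passage, which pairs no cell culture with an EV culture. EV were pelleted by rounds of centrifugation from serum-free medium conditioned for 24 h after 5 washes per the labels. The methods instead give 48 h in vesicle-depleted medium after 3 washes. They also describe filtration, a sucrose cushion and RNase A treatment for EV. RNA from cell pellets and RNA from EV pellets were isolated with different kits, so fraction, kit and these EV steps cannot be told apart. A single line was used, and p-values therefore measure only the spread between cultures of that line.

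A microRNA hairpin is cut by Drosha and Dicer into a short duplex with an arm from each side of the stem. An Argonaute protein usually keeps one arm as the guide and the other is lost, and bases 2 to 8 of the guide, its seed, pair with target messages. Intronic miRNAs are released from the transcript of their host gene. MEST is an imprinted gene, expressed from the paternal copy, that encodes a hydrolase-like protein, and miR-335-5p is best known as a suppressor of metastasis in breast cancer cells.

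The sequences are shown because the result concerns which side of the hairpin was counted, and because the arms carry different seeds. They were taken from RefSeq on GRCh38.p14. In the mature arms the capitals mark the seed, and in the hairpin the capitals mark the arms.
miR-335-5p: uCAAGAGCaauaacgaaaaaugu
miR-335-3p: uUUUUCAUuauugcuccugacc
MIR335 hairpin: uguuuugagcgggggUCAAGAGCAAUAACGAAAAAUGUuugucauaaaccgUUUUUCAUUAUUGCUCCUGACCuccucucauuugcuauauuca

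The hairpin is 94 bases long and lies on the plus strand at chr7:130496111-130496204. miR-335-5p occupies chr7:130496126-130496148 and miR-335-3p occupies chr7:130496162-130496183. The count tables, whose header names no genome build, place the arms at other positions on the same chromosome, and the positions above are those of RefSeq. In the GENCODE 29 annotation, on the same genome, MEST runs from 130486171 to 130506465 on the plus strand. All 13 MEST transcripts that span the hairpin hold it in an intron and none overlaps it with an exon. This intron separates exons 2 and 3 of transcript MEST-201 and is 1633 bases long, and the hairpin starts 588 bases after exon 2. The antisense transcript MESTIT1 lies on the minus strand from 130486042 to 130491033 and does not reach the hairpin, so its reads cannot fall on either arm.

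miR-335-5p has 23 bases, of which 12 are A and 4 are U. miR-335-3p has 22 bases, of which 3 are A and 11 are U. In the fold that RNAfold predicts for the hairpin, 18 bases of miR-335-5p pair with bases of the other arm, and 13 bases separate the arms. Both arms begin with U, a base often found at the start of guide strands. None of the other listed miRNAs with a RefSeq sequence (2262 names in all) has the seed of either arm, over bases 2 to 8 or over bases 2 to 7, so neither arm has a seed relative whose counts could be set beside it.

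The total count was between 396025 and 3990900 in the whole cell libraries and between 1225541 and 3134561 in the EV libraries. The lowest total was that of whole cell replicate 1. Levels are given as CPM, the count divided by the library's total and scaled to 1000000, and for a 0 an upper limit of 3 counts was used, or from 0.752 to 7.58 CPM in whole cells and from 0.957 to 2.45 CPM in EV. These limits, and all 95% intervals on counts, cover the counting error of reads only. The methods state no collapsing of duplicate molecules, so the limits and intervals may be too narrow. The libraries also differed in their low counts. Between 298 and 541 miRNAs had from 1 to 9 counts in a whole cell library, against 25 to 44 in an EV library.

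miR-335-5p, usually taken as the guide strand of the pair, was close to absent from the cells and abundant in EV. It had 0, 2 and 0 counts in whole cell replicates 1, 2 and 3, while EV replicates 1, 2 and 3 held 105, 1401 and 1357. The groups did not overlap, and the lowest EV count was far above the highest whole cell count. The level in the only whole cell library with a count, replicate 2, was 0.501 CPM (95% exact Poisson interval 0.0607 to 1.81), and miR-335-5p ranked 775 of the 1058 miRNAs counted there.

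In EV the level of miR-335-5p was 85.7 CPM in replicate 1 (95% exact Poisson interval 70.1 to 104), 687 in replicate 2 (652 to 724) and 433 in replicate 3 (410 to 457). The intervals do not overlap, so the EV libraries differed from each other by more than the counting error of reads. It ranked 193 of 431 miRNAs counted in EV replicate 1, 95 of 427 in replicate 2 and 93 of 329 in replicate 3, and 105 of all 2576 by mean EV level.

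The mean level of miR-335-5p was 0.167 ± 0.289 CPM for whole cells and 402 ± 302 CPM for EV (SD, n = 3 each). Without EV replicate 2 the EV mean was 259 CPM. On summed counts, 2863 in EV against 2 in whole cells, the level was 1262 times higher in EV, with a 95% counting interval from 349 to 10422. Without whole cell replicate 2, which held both whole cell counts, the level was at least 80.6-fold higher in EV, with 3 counts allowed in each whole cell library. With any other library left out the ratio lay between 945 and 1503.

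The EV libraries were far apart in miR-335-5p. Its highest EV library was 8.02 times its lowest. Among the 256 miRNAs past the filter described next that were counted in every EV library, the median of this ratio was 2.49, and 22 of the 256 (8.59%) had a higher one.

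miR-335-3p, the arm from the other side of the stem, showed the opposite picture at a far lower level. It had 8, 13 and 3 counts in whole cell replicates 1, 2 and 3, and 0 counts in each EV library. The whole cell counts are 20.2 CPM (95% exact Poisson interval 8.72 to 39.8), 3.26 CPM (1.73 to 5.57) and 2.40 CPM (0.494 to 7.0). In observed CPM every whole cell library lay above every EV library, and replicate 1, the shallowest library, lay above the intervals of the other two. The 2.40 CPM of whole cell replicate 3 was not above the 2.45 CPM that 3 counts allow in EV replicate 1. That pair is therefore not separated beyond counting error.

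The mean level of miR-335-3p in whole cells was 8.62 ± 10.0 CPM (SD, n = 3), and 2.83 CPM without replicate 1. With 3 counts allowed in each EV library, miR-335-3p was at least 5.30-fold lower in EV. Without whole cell replicate 1 this limit was 1.74-fold, and with any other library left out it lay between 4.40 and 7.22. In whole cells it ranked 300 of 586 miRNAs counted in replicate 1, 474 of 1058 in replicate 2 and 499 of 811 in replicate 3.

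**Figure D1:**
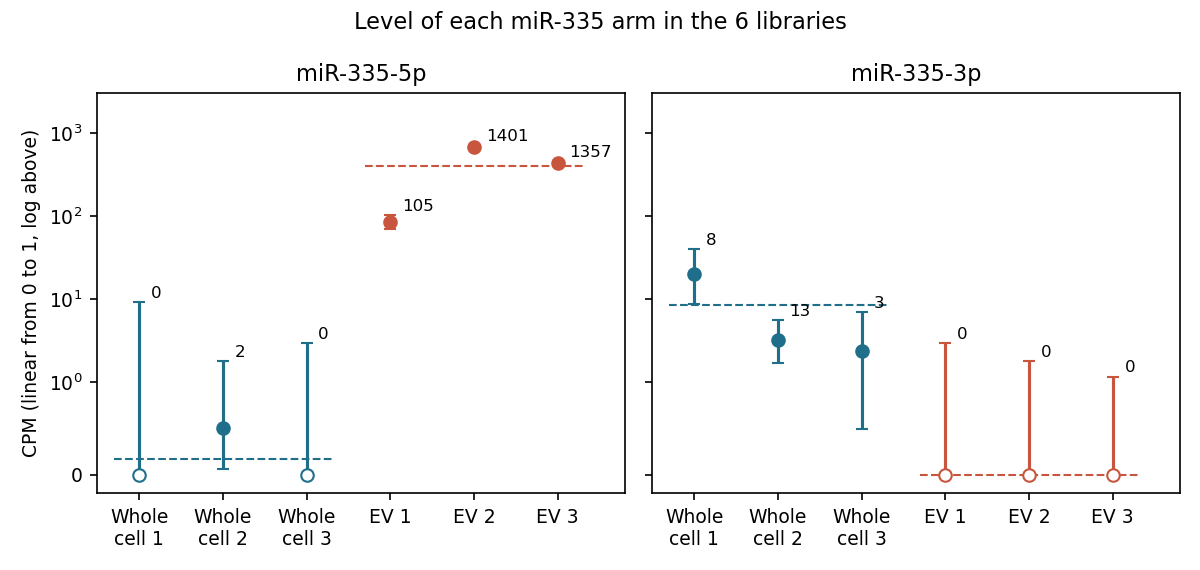
Level of miR-335-5p (left) and miR-335-3p (right) in each library, in CPM on an axis that is linear from 0 to 1 and logarithmic above. Points are libraries, open where the count is 0, bars are 95% exact Poisson intervals, dashed lines are group means and the numbers beside the points are counts. The 5p arm reaches 85.7 to 687 CPM in EV, while the 3p arm has no count in any EV library and 3 to 13 counts in the whole cell libraries.

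A count of 0 was common at the level that miR-335-3p has in cells. Of the 135 miRNAs whose mean whole cell level lay within 2-fold of that of miR-335-3p, 42 (31.1%) had 0 counts in all 3 EV libraries and for 20 (14.8%) all EV libraries were higher than all whole cell libraries. Zeros in EV were also found beside high counts. Of the 430 miRNAs past the filter, 139 had 0 counts in some EV libraries but not in all, and 46 of these had 100 or more counts in another EV library. The limit on miR-335-3p in EV, which allows for counting error only, does not cover such differences between libraries.

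The share of the 5p arm in the sum of both arms turned over between the fractions. In whole cells miR-335-5p made up 0% of the arm counts in replicate 1 (0 of 8, 95% Clopper-Pearson interval 0 to 36.9%), 13.3% in replicate 2 (2 of 15, 1.66 to 40.5%) and 0% in replicate 3 (0 of 3, 0 to 70.8%). In EV it made up 100% in each library, with lower bounds of 96.5%, 99.7% and 99.7% in replicates 1, 2 and 3. The whole cell and EV intervals did not overlap in any pair of libraries.

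Summed over libraries, miR-335-5p held 2 of 26 arm counts in whole cells (7.69%, 95% Clopper-Pearson interval 0.946 to 25.1%) and 2863 of 2863 in EV. The 0 counts of miR-335-3p allow it up to 0.105% of the arm counts in EV. The level of the hairpin's products as a whole, both arms added, was 8.79 ± 9.91 CPM (SD, n = 3) in whole cells and 402 ± 302 CPM in EV, a ratio of 45.8. Without whole cell replicate 1 this ratio was 131, and without EV replicate 2 it was 29.5. In CPM, the 5p arm was higher in EV by far more than the 3p arm was lower. The 3p arm, with a mean of 8.62 CPM in whole cells, could not fall by more than that, so the comparison was bounded in advance.

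Other hairpins place this share in context. Among the 186 precursors with both arms listed, at least 100 arm counts in an EV library and at least 10 in whole cells, the larger arm differed between the fractions in 23 (12.4%), toward 5p in EV in 10 and toward 3p in EV in 13. The median absolute difference in 5p share was 2.5 percentage points. The difference for miR-335 was 92.3 points, and 0 of the other precursors had a larger one. miR-335 was selected on the ratio of its arms, so nothing is read from this place. The place also depends on the minimum in whole cells. miR-3607, with 9 counts of its arms there and so left out, went from a 5p share of 0% (0 of 9) to 100% (134 of 134).

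A total of 74 of the 186 precursors (39.8%) had an arm with 0 counts in all EV libraries, but for 10 of them that arm was the larger in whole cells. These were miR-335, miR-424, miR-32, miR-3129, miR-582, miR-29c, miR-3144, miR-301a, miR-655 and miR-487a. miR-424, a member of the miR-16 seed family, had 57 counts of its 5p arm and 549 of its 3p arm in whole cells, and 453 and 0 in EV, a difference of 90.6 points. Its whole cell share of 9.41% lay within the interval for miR-335, so the order of these hairpins is not beyond counting error. The turn was in the other direction for miR-487a, which had a difference of -82.8 points.

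**Figure D2:**
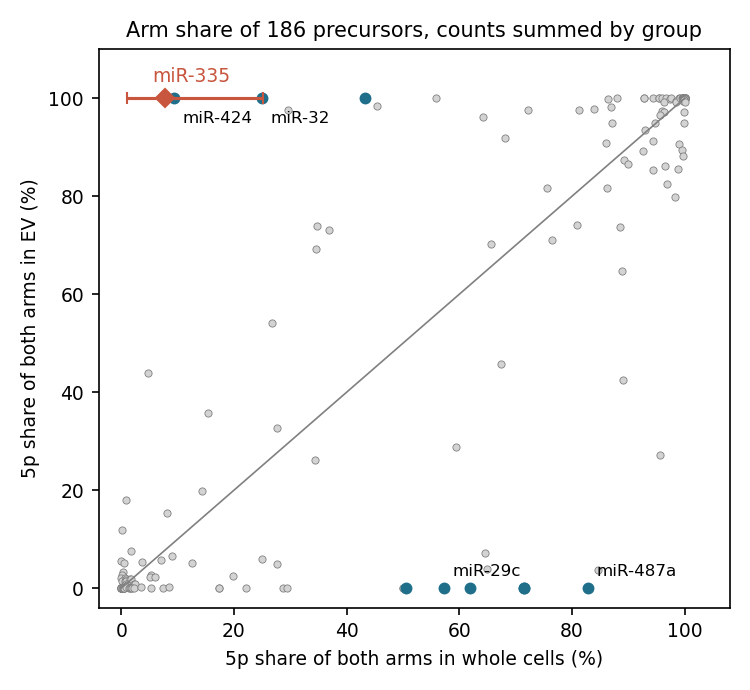
Share of the 5p arm in the counts of both arms (%), in whole cells (x axis) and in EV (y axis), for 186 precursors with counts summed over the libraries of each group. The diamond is miR-335 with its 95% Clopper-Pearson interval in whole cells, dark points are the other precursors whose larger arm in whole cells had 0 counts in EV, and the line marks equal shares. miR-335 lies at 7.69% in whole cells and 100% in EV, beside miR-424.

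To compare EV with whole cells across all miRNAs, a filter kept the 430 that reached 5 CPM in 3 or more libraries, and these were tested with edgeR (quasi-likelihood F-test, Benjamini-Hochberg adjusted). A miRNA was called when its adjusted p was under 0.01 and its log2 fold change was 2.5 or more in size. Of the 430, 4.42% were called higher in EV and 1.4% lower, 5.81% in all. miR-335-5p passed the filter through its EV libraries alone and was among the miRNAs called higher. This is the contrast on which it was selected, and nothing is read from the call. miR-335-3p did not pass the filter.

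The fitted log2 fold change of miR-335-5p was 9.95 (SE 1.28), the second highest of the 430, and with so few whole cell counts its size depends on the prior of the fit. It was 9.80 in DESeq2, and between 9.42 and 12.26 with a library left out. Fitted without the filter, the log2 fold change of miR-335-3p was -6.96 (SE 2.46). Each SE of an edgeR fold change is its absolute value over the square root of the F statistic. Such an SE is approximate, above all where a group is at 0. On the log2(CPM + 4) scale, which draws low values together, the mean of miR-335-5p with TMM scaling was 2.06 ± 0.10 for whole cells and 8.23 ± 1.40 for EV (SD, n = 3 each).

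The EV libraries were all higher than the whole cell libraries for 20.5% of the 430 miRNAs, and all lower for 27.9%. Few of the former were as rare in cells as miR-335-5p. Of the 430 miRNAs, 10 (2.33%) had at most 3 counts in every whole cell library, and miR-335-5p had the highest mean EV level of these. The next were miR-142-3p, a miRNA of white blood cells, with a mean of 306 CPM in EV, miR-126-5p, of endothelium, with 124 CPM, and miR-451a, of red blood cells, with 99.9 CPM. The EV range of miR-335-5p, 85.7 to 687 CPM, overlapped that of each of these 3. The others were miR-19a-3p, miR-1246, miR-301a-3p, miR-374a-3p, miR-141-3p and miR-6126. With so few counts in cells, a miRNA reaches 5 CPM in 3 libraries only with EV libraries among them. The filter thus favoured a high EV level in all 10, and the share of 2.33% depends on it. The place of miR-335-5p among them rests on the values it was selected on, and nothing is read from it.

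**Figure D3:**
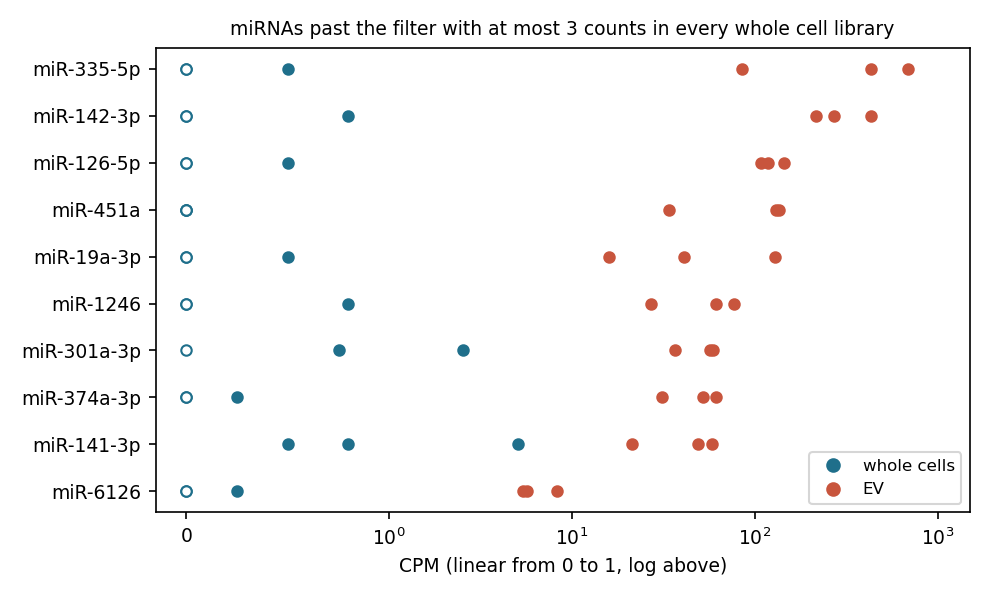
Level of the 10 miRNAs past the filter that had at most 3 counts in every whole cell library, in CPM on an axis that is linear from 0 to 1 and logarithmic above. Each point is a library, open where the count is 0. miR-335-5p has the highest mean EV level and also a wide spread, from 85.7 to 687 CPM. With so few counts in cells, the filter keeps only miRNAs counted in EV.

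Because those miRNAs include markers of blood, a list of 11 blood, endothelial and liver miRNAs was examined beside miR-335-5p. Of the 11, 6 passed the filter, all 6 had higher levels in each EV library than in any whole cell library (against 20.5% of all miRNAs), and 3 were called higher and 0 lower (against 4.42% and 1.4%). The median log2 fold change of the 6 was 6.27, or 4.45 with miR-451a at the limit that 3 counts per library set, against -0.23 over all miRNAs. miR-451a, miR-142-3p and miR-126-5p were under 5 CPM in every whole cell library and passed the filter through EV alone, so the filter fixed their direction. Of the other 3, all 3 had higher levels in each EV library and 1 was called. The summed level of the list was 265 to 1204 CPM in whole cells and 2314 to 3213 CPM in EV. Of this sum, miR-486-5p held 164 to 1161 CPM in whole cells and 1197 to 1711 CPM in EV. In whole cells 4 of the 11 were at 0 in every library, and in EV none was. However, miR-144-3p, miR-144-5p, miR-142-5p, miR-223-3p and miR-150-5p, which did not pass the filter, each had 0 counts in 1 or more EV libraries.

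The called members of this list were miR-142-3p, with 0, 0 and 1 counts in whole cells and 331, 878 and 680 in EV, and both arms of miR-126. miR-126-3p, an endothelial miRNA, had 37, 154 and 38 counts in whole cells and 686, 1412 and 1337 in EV, and rose by a log2 value of 3.45 (SE 0.54, adjusted p = 0.00661 by edgeR). For miR-486-5p, a red cell miRNA, the log2 fold change was 0.78 (SE 0.70, adjusted p = 0.487 by edgeR). Without EV replicate 1, EV replicate 2 or whole cell replicate 3 none of the list was called, and without whole cell replicate 1 or 2 a single member was. The list was chosen with the high EV counts of some members known, and the part of serum or other cells in the level of miR-335-5p was not tested.

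Counts of 7 miRNAs that are abundant in Müller glia were also examined. No other cell type was sequenced, so these miRNAs cannot check the label of the cells. All 7 passed the filter, 0 were called in EV against whole cells by edgeR (against 5.81% of all miRNAs), and 4 had an unadjusted p below 0.05 (against 154 of 430). In 3 of them all EV libraries were lower and in 1 all were higher. miR-181a-5p, of neural tissue and the retina, had a log2 fold change of -2.60 (SE 0.56, adjusted p = 0.0121 by edgeR) and passed both limits with DESeq2 (-2.84, adjusted p = 1.46e-05). Their summed level was 284088 to 359371 CPM in whole cells and 249512 to 294206 CPM in EV. The most abundant were let-7a-5p and miR-125b-5p.

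The position of miR-335 was considered next. The tables place 19 mature miRNAs within 5 Mb of miR-335-5p on chromosome 7, of which 12 had a count and 7 passed the filter. By edgeR, 0 of the 7 were called in either direction (against 5.81% of all miRNAs), while 5 had an unadjusted p below 0.05 (against 154 of 430), and DESeq2 called 1 higher and 1 lower. At an adjusted p below 0.05 from edgeR alone, 4 were higher and 1 was lower in EV (against 63 and 60 of the 430), and 4 had all EV libraries higher and 1 all EV libraries lower (against 20.5% above and 27.9% below of all miRNAs). The median log2 fold change of the 7 was 1.45, against -0.23 over all miRNAs.

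The nearest of these are the miR-29 miRNAs, which target messages for collagens and other matrix proteins, on the far side of MEST. miR-29b-3p, 426.3 kb away and also encoded at a second locus, had 60, 144 and 37 counts in whole cells and 766, 1528 and 1235 in EV. The EV libraries were all higher in CPM, with a log2 fold change of 3.16 (SE 0.68, adjusted p = 0.0121 by edgeR), and without whole cell replicate 1 it passed both limits at 3.90 (adjusted p = 0.00961 from edgeR). The log2 fold change was 1.45 for miR-29a-3p (SE 0.42, adjusted p = 0.0386 by edgeR), and 1.23 with RLE factors (adjusted p = 0.0649 by edgeR). miR-29b-1-5p, from the opposite arm of a miR-29b hairpin, had 8, 28 and 14 counts in whole cells and 26, 0 and 0 in EV, and its groups overlapped.

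On the other side lie the miRNAs of the miR-183 cluster, which are abundant in photoreceptors and other sensory cells. miR-182-5p, 725.7 kb away, had 85, 612 and 161 counts in whole cells and 819, 1541 and 2743 in EV. Its log2 fold change was 2.26 (SE 0.39, adjusted p = 0.00872 by edgeR). For miR-183-5p it was 2.07 (SE 0.49, adjusted p = 0.0171 from edgeR). miR-96-5p, of the same cluster, had 10, 29 and 8 counts in whole cells and 0, 91 and 0 in EV. Its log2 fold change was 0.09 (SE 2.03), or -0.19 with RLE in place of TMM factors, and became -7.57 without EV replicate 2 (adjusted p = 0.0212 from edgeR).

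miR-129-5p, also encoded at a second locus and 2288 kb away on this side, was lower in EV. Its level was 27.8, 50.4 and 35.9 CPM in the whole cell replicates and 0 in each EV library, a fall of at least 23.4-fold when 3 counts are allowed per EV library. Its adjusted p was 0.0121 from edgeR. No neighbour had whole cell counts as low as those of miR-335-5p together with an EV level as high, and the highest correlation of a neighbour with miR-335-5p over the 6 libraries was 0.955.

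**Figure D4:**
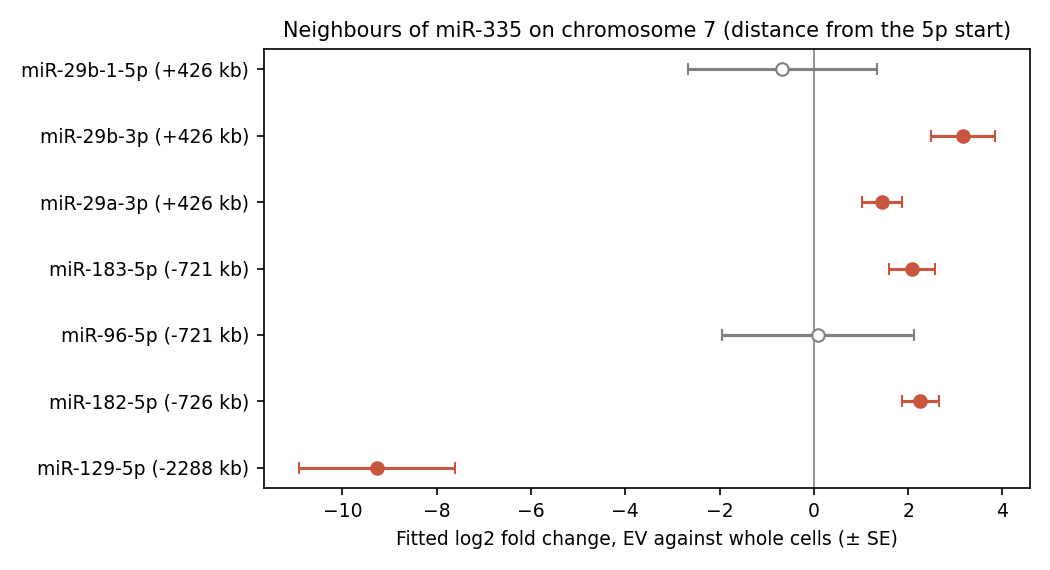
Fitted log2 fold change in EV against whole cells (points, with SE as bars) of the 7 miRNAs within 5 Mb of miR-335 that passed the filter, ordered by distance from the start of miR-335-5p in kb. Filled points have an adjusted p below 0.05 in edgeR, and open points do not. The SE was derived from the F statistic and is approximate. The higher ones lie between 1.45 and 3.16, while miR-129-5p, at 0 in every EV library, lies at -9.26.

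MEST is imprinted, and miRNAs of other imprinted loci (the 14q32 cluster, C19MC, and those in H19, IGF2 and GNAS-AS1) were set beside it. Of 160 listed, 75 passed the filter, 5 were called higher and 2 lower in EV (9.33% in all, against 5.81% of all miRNAs), and the median log2 fold change was -0.20. Apart from miR-296-3p and miR-296-5p, of GNAS-AS1, all of the 75 belong to 14q32. The values therefore describe that cluster and not imprinted loci in general. The higher ones were miR-136-3p (4.95), miR-411-5p (4.40), miR-889-3p (4.24), miR-376a-3p (4.16) and miR-382-3p (3.74), and the lower ones were miR-299-5p (-3.58) and miR-493-5p (-3.05). All 7 belong to 14q32 and were counted in every library, unlike miR-335-5p. Without EV replicate 2 or whole cell replicate 3 none was called, and without EV replicate 1 or whole cell replicate 2 there were 2 called higher and 0 lower, and without whole cell replicate 1 there were 4 higher and 1 lower.

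A list of miRNAs from introns of other protein-coding genes had 82 members, of which 55 passed the filter, 3 were called higher and 1 lower (against 4.42% and 1.4%). The median log2 fold change was -0.32. The higher ones were both arms of miR-126, from EGFL7, and miR-590-3p, from EIF4H, and the lower one was miR-15b-5p, from SMC4, which fell by 3.0 on the log2 scale. Of these, miR-126-5p and miR-590-3p passed the filter only with EV libraries among those at 5 CPM. The filter thus favoured a high EV level in both. miR-590-3p had 2, 8 and 0 counts in whole cells and 476, 558 and 571 in EV, and its log2 fold change was 7.19 (SE 1.21, adjusted p = 0.00858 by edgeR). With EV replicate 1, EV replicate 2, whole cell replicate 2 or whole cell replicate 3 left out, none of these was called higher. Without whole cell replicate 1 there was 1, and without EV replicate 2 or whole cell replicate 3 none was called lower. The medians of both lists lay close to that of all miRNAs, -0.23.

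The pattern of miR-335-5p over the 6 libraries was compared with those of the other 429 miRNAs by Pearson's correlation of log2(CPM + 4). The 5 most similar were miR-1 (r = 0.997), a miRNA of muscle, miR-9-3p (r = 0.994), a neural miRNA, miR-140-5p (r = 0.994), of cartilage, miR-10b-5p (r = 0.985), of the HOXD cluster, and miR-450b-5p (r = 0.983). The correlations are a description over 6 libraries that fall into 2 groups. The depth of a library, which differs between libraries, is common to all its miRNAs, and 46 miRNAs had an r over 0.9.

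EV replicate 1 was the lowest EV library for each of these 5, as it was for miR-335-5p. The choice by correlation favours such a shared low value, and nothing is read from it. miR-1, which is encoded at 2 loci, had 104, 683 and 620 counts in EV replicates 1, 2 and 3, against 105, 1401 and 1357 for miR-335-5p. Unlike miR-335-5p it was counted in every whole cell library, with 3, 19 and 4 counts. By Euclidean distance, which also weighs the level, the nearest were miR-142-3p, miR-1, miR-137, miR-590-3p and miR-126-5p, and 1 name was shared between the measures.

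**Figure D5:**
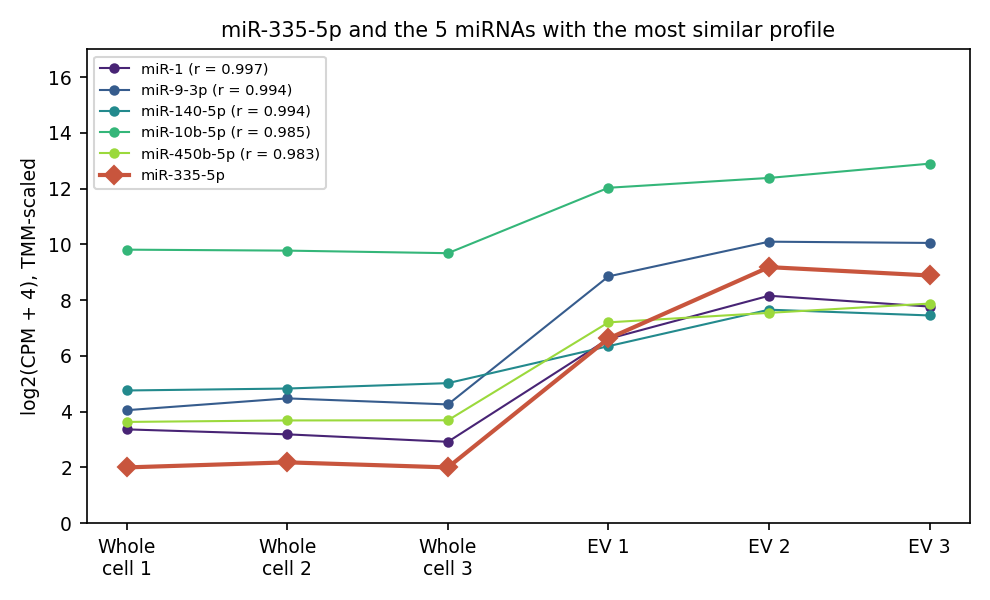
Profiles of miR-335-5p (diamonds) and of the 5 miRNAs most correlated with it over the 6 libraries, as log2(CPM + 4) on TMM-scaled counts. The mean of miR-335-5p is 2.06 in whole cells and 8.23 in EV. EV replicate 1 is the lowest EV library in each profile, which the choice by correlation favours.

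Sequence composition was examined as a feature that the selection did not use. miR-335-5p, printed above, has a GC content of 30.4%, and miR-335-3p has 36.4%. The median of the 390 miRNAs past the filter with a RefSeq sequence was 50.0%, and 9 of them (2.31%) were lower than miR-335-5p. Across the 390, GC content and log2 fold change had a Spearman rho of -0.42, as a description over miRNAs that are not independent.

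Besides miR-335-5p, 10 miRNAs had a GC content at or under its own. All 10 had a positive log2 fold change, with a median of 3.54, and 2 were called higher. Of the 379 with a higher GC content, 166 were positive and 14 were called higher. Among all 430 miRNAs, 198 were positive and 4.42% were called higher. The changes of miR-190a-5p (1.13, SE 1.82) and miR-135a-5p (0.48, SE 1.76) were smaller than their SE, and both had 0 counts in EV replicate 3. miR-655-3p and miR-374a-3p were under 5 CPM in every whole cell library and passed the filter through EV alone. The median of the other 8 was 3.0, and for 5 of these 8 all EV libraries were higher (against 20.5% of all miRNAs). Among the 8, miR-590-3p (2, 8 and 0 counts in whole cells) and miR-3613-5p (3, 13 and 3) also needed EV libraries to pass. The filter thus favoured a high EV level in both, and the values of the 8 are not free of it. The called ones are printed to show this composition, with the seed in capitals.
miR-590-3p: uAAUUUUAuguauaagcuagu
miR-450b-5p: uUUUGCAAuauguuccugaaua

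miR-590-3p has a GC content of 19% and miR-450b-5p one of 27.3%. miR-450b-5p had 4, 33 and 10 counts in whole cells and 159, 443 and 669 in EV. Its log2 fold change was 4.40 (SE 0.76, adjusted p = 0.00872 by edgeR). Neither shares the seed of miR-335-5p.

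Both arms of miR-335 are poor in G and C, the arm at 0 in EV included. In 7 of the 10 precursors whose larger cell arm had 0 counts in EV, miR-335 among them, the arm counted in EV had the lower GC content, and in 1 the arms were equal. Of 154 other precursors, the larger EV arm had the lower GC content in 89 (57.8%) and the arms were equal in 12, so the count of 7 is no result about these precursors. Short motifs that have been linked to sorting into EV, GGAG, CCCU and GGCU, were searched in the mature strands as written. Neither arm of miR-335 holds any of the 3, while 10.5%, 10.8% and 14.4% of the 390 miRNAs hold GGAG, CCCU and GGCU.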

How the data were processed

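The authors prepared libraries with the QIAseq miRNA kit, trimmed adapters with cutadapt and deposited unnormalized counts per mature miRNA. Per the file headers, counting used featureCounts 1.5.0-p1 (strand setting 1, miRBase 20) on Bowtie 1 alignments. The methods name Bowtie2 and a later miRBase release instead. Files listed every mature miRNA, and both arms of miR-335 were matched by name.

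CPM were computed on each library's total count. For miRNAs reaching 5 CPM in 3 or more of 6 libraries, edgeR 4.0.16 in R 4.3.3 gave TMM factors, quasi-likelihood F-tests and Benjamini-Hochberg adjusted p-values, with DESeq2 1.42.0 as an alternative. The SE of an edgeR log2 fold change was computed as its absolute value over the square root of F. The fit was tested on simulated data. Log2 values used a pseudocount of 4. Intervals were exact Poisson or Clopper-Pearson (95%). Hairpins were folded with RNAfold 2.7.2. Python 3.11.15 and matplotlib 3.10.9 were used for levels and figures.

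RefSeq sequences matched 2262 of 2576 names. The members and lists were chosen with earlier results of these data known. Named miRNAs were both arms, neighbours past the filter, called list members and the 5 most correlated miRNAs. The miRNAs of low GC content, those rare in whole cells, those with an opposite arm, the uncalled blood miRNAs and miR-181a-5p were named after their values were seen. Alternatives covered the tool, scaling, filter, threshold, pseudocount, window and each library left out in turn.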

Additional observations from a re-analysis of the deposited data

How the results depend on the processing

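On the log2(CPM + 4) scale, miR-335-5p differed by 6.17 and miR-335-3p by -1.38 between EV and whole cells. With a pseudocount of 1 the differences were 8.01 and -2.75, and fitted by edgeR with no filter they were 9.83 and -6.96. With a library left out they ran from 5.57 to 7.05 and from -1.73 to -0.77. DESeq2 size factors gave miR-335-5p a mean of 265 in EV. No direction was reversed.

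Counts of called miRNAs depended on the settings. DESeq2 called 42 miRNAs higher and 30 lower, an adjusted p below 0.05 gave 51 and 42, RLE factors gave 10 lower and no filter gave 22 lower. The median log2 fold change of all miRNAs was -0.23 with TMM and -0.41 with RLE factors. With a library left out, from 0 to 22 were called higher and from 0 to 9 lower. The 0 calls without EV replicate 2 and without whole cell replicate 3 stood beside 169 and 121 miRNAs at an unadjusted p below 0.05.

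Of the chromosome 7 neighbours, DESeq2 and an adjusted p below 0.05 each gave 1 higher and 1 lower, no filter gave 1 lower, and left-out libraries gave 0 to 1 higher. Of imprinted-locus miRNAs, an adjusted p below 0.05 gave 11 higher and 8 lower, DESeq2 gave 9 lower and no filter gave 5 lower, and left-out libraries gave 0 to 5 higher and 0 to 3 lower. Of host-gene intronic miRNAs, DESeq2 gave 6 higher and 4 lower, RLE factors gave 1 higher, no filter gave 2 lower and an adjusted p below 0.05 gave 8 higher and 4 lower, and left-out libraries gave 0 to 4 higher and 0 to 1 lower. Of blood miRNAs, DESeq2 and an adjusted p below 0.05 each gave 5 higher, and left-out libraries gave 0 to 3. The cause of these changes was not tested. The values of miR-335-3p rest on 24 counts in whole cells and 0 in EV. DESeq2 also called a Müller glia miRNA, miR-181a-5p, lower. No paired analysis was possible because the replicate numbers were given in order of passage and mark separate cultures, taken at different passages in the groups.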
